A study of Caenorhabditis elegans with 6 samples.

Results

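The sdz, pes, vet and tbx genes of Caenorhabditis elegans are gene families named for, or best known from, transcription by the embryo itself, and they were followed here in RNA of whole adult worms on a pair of bacterial diets. They were taken by symbol, as every gene of the deposited tables whose name begins with sdz-, pes-, vet- or tbx-, which gave 59 of 18811 genes: 30 sdz, 9 pes, 3 vet and 17 tbx. The families were picked after embryo genes had been seen to differ between these diets, so their differences between the diets are given below as a description and not as a test. Worms were grown at 20 °C on agar plates and moved at larval stage 4 to Escherichia coli, either the laboratory strain BW25113 (3 libraries) or a mutant strain called purE in the labels (3 libraries). In E. coli, purE is one of the genes for making purines, and how this mutant was built is not described in the labels. RNA came from synchronized adults, with no worm genotype, sex or exact adult age in the labels. Nor do the labels say whether the replicates were separate worm cultures, so any p-value measures the spread between these samples only, which may be technical.

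A C. elegans embryo starts on RNA and protein that its mother placed in the oocyte, and only then switches on its own genome, cell lineage by cell lineage. An adult hermaphrodite carries fertilized embryos in its uterus, so a whole-adult library can hold embryonic RNA. The vet genes are named as very early transcripts, and the sdz genes as zygotic transcripts that depend on SKN-1, a maternal transcription factor that specifies the endoderm and mesoderm precursor. The pes genes are named for patterned expression sites of reporter insertions. The tbx genes encode T-box transcription factors, several of which choose or shape lineages of the pharynx, muscle and epidermis. In bulk RNA, fewer embryos and less RNA per embryo cannot be told apart.

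Total estimated counts per library ran from 21880610 to 22607925. A gene is compared between libraries in CPM, its read count scaled to library size after TMM normalisation, and genes are compared with each other in FPKM, the authors' value per transcript length. A count of 0 allows up to 3 counts, which is 0.110 to 0.160 CPM across the libraries and covers counting error only. Between libraries of the same diet the counts varied by more than counting error, at 42.5 to 350 chi-square units for each degree of freedom. No gene of the whole table passed an adjusted p of 0.05 in edgeR's quasi-likelihood test.

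Most of these genes were scarce in adults of either diet. On BW25113 the highest mean was that of pes-9, at 91.05 ± 1.42 FPKM (SD, n = 3), followed by sdz-27 at 23.3 ± 5.61 and tbx-9 at 14.1 ± 1.60 FPKM. Averaged over all 6 libraries, pes-9 lay above 95.0% of all deposited genes, sdz-27 above 83.2% and tbx-9 above 77.1%. The early transcripts vet-1, vet-2 and vet-6 stood at 2.97 ± 1.97, 1.53 ± 0.300 and 1.57 ± 0.242 FPKM on BW25113, where vet-2 and vet-6 did not differ beyond their spread. The lineage factor genes tbx-37, tbx-38 and tbx-35 were at 0.497 ± 0.259, 0.530 ± 0.219 and 0.0333 ± 0.0289 FPKM. Only 32 of the 59 genes had enough reads for the expression filter of edgeR: all 9 pes and all 3 vet genes, 12 of 30 sdz and 8 of 17 tbx. A gene can pass that filter through BW25113 alone, so values of these 32 do not stand for all 59.

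Counted over all 59 genes, lower values on purE were common and higher ones rare. All purE libraries lay below all BW25113 libraries for 29 of the 59 genes, where 6.17% of the 17609 genes with a read did so, and for 18 of the 32 filtered genes, where 6.68% of filtered genes did so. The reverse order was found for 2 of the 59, against 12.1% of genes with a read. A level under 50% of the gene's BW25113 mean in every purE library was found for 28 of the 59. It was found for 5.97% of the 16926 genes with a BW25113 read, which were not matched for read depth. Of the 32 filtered genes 15 had such a level, against 2.08% of filtered genes. The 28 were 16 sdz, 7 tbx, 2 pes and all 3 vet genes. They include sdz-23, sdz-35, tbx-35 and tbx-41, with at most 1 read in any library, and sdz-1, sdz-10, sdz-15 and tbx-32, with at most 4. At so few reads a share under 50% says little. Others of the 28 were also under the filter, with at most 26 reads in any library. The purE libraries were unequal: 39, 46 and 36 of the 59 genes were under 50% in purE replicates 1, 2 and 3. Of the 16926 genes, 16.4%, 21.2% and 15.2% were so, and purE replicate 2 had the largest share there too. Measured against the other BW25113 libraries in the same way, 6, 6 and 16 of the 59 were under 50% in BW25113 replicates 1, 2 and 3. By this count BW25113 replicate 3 was the lowest of its group. Of the 16926 genes, 12.3%, 16.8% and 17.3% were so. No read at all was found for 23 of the 59 genes in purE replicate 2, for 9 and 12 in purE replicates 1 and 3, and for 2, 3 and 5 in the BW25113 libraries. Over the whole table, 15856, 16108 and 15779 genes had a read in purE replicates 1, 2 and 3. In BW25113 replicates 1, 2 and 3 it was 15844, 15390 and 15816.

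The fold changes of the 32 filtered genes ran from -3.38 to 3.90 on the log2 scale, purE over BW25113. Of the 32, 24 were negative, with a median of -1.28, while 48.4% of all 12144 genes tested were negative, with a median of 0.03. With no filter 50 of the 59 were negative, against 45.5% of 17609 genes, with a median of -1.71 over the 59. edgeR's quasi-likelihood test called 0 of the 32 after Benjamini-Hochberg adjustment, as it called 0% of all genes, and limma-voom also called 0. An unadjusted p under 0.05 was found for 16 lower genes, where 3.81% of all genes were so, and for 3 higher genes, where 12.7% were. DESeq2 called 10 of the 32 lower and 2 higher, where it called 1.53% of all genes lower and 6.26% higher. Since the families were picked on this contrast, nothing is read from these counts. They also moved with single libraries: edgeR called 14 lower and 3 higher of 35 without purE replicate 1, where it called 3.48% and 11% of all genes. DESeq2 called 0, 1 and 6 of the genes lower without BW25113 replicates 1, 2 and 3, where 0.393%, 0.351% and 1.68% of all genes were. It called 17, 6 and 4 lower without purE replicates 1, 2 and 3, where 7.1%, 0.946% and 0.799% of all genes were. Its higher calls in the same 6 fits were 1, 1, 2, 3, 1 and 2, where 2.48%, 2.01%, 6.05%, 13%, 1.15% and 3.35% of all genes were. The median log2 fold change was -2.19 when purE replicate 1 was left out, -2.06 when BW25113 replicate 3 was and -1.06 when purE replicate 2 was. It was -0.66 over the 24 genes with at least 1 CPM in 3 libraries and -0.71 over 26 genes on the log2(FPKM + 1) scale, where all genes had -0.11.

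**Figure D1:**
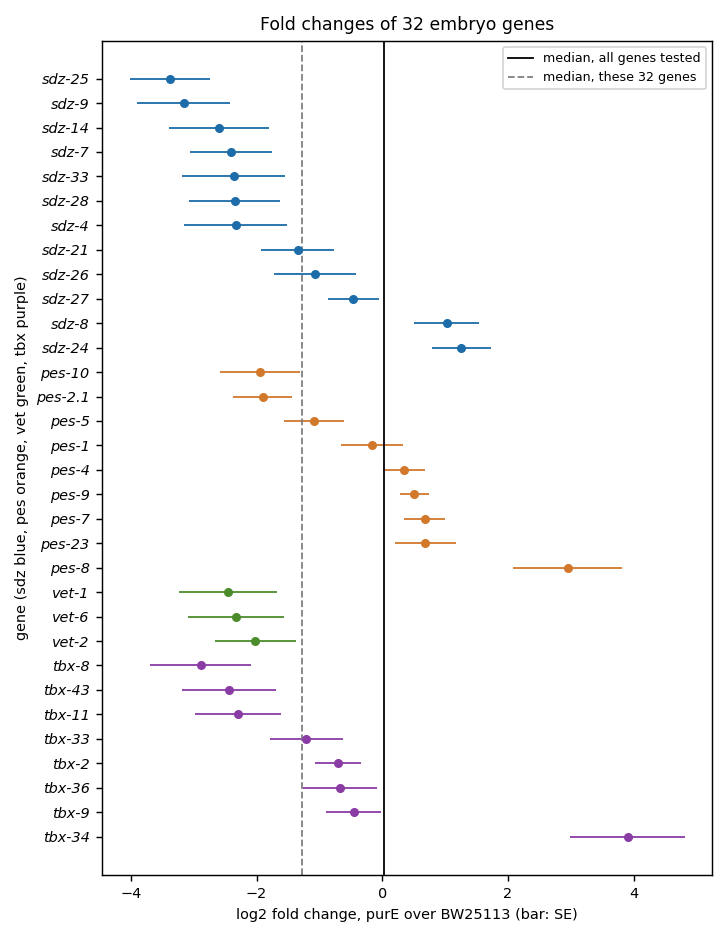
Log2 fold change, purE over BW25113, of the 32 sdz, pes, vet and tbx genes that passed the expression filter, with the standard error as a bar. The dashed line is their median of -1.28 and the solid line that of all genes tested, 0.03; tbx-34 and pes-8 stand far to the right at 3.90 and 2.95.

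The very early transcripts were the most uniform family. vet-1 (chromosome I, 6200798 to 6202076, WBcel235) stood at 5.95, 2.77 and 1.37 CPM on BW25113 replicates 1 to 3 and at 0.992, 0.106 and 0.695 CPM on purE replicates 1 to 3. vet-2 (chromosome I, 10846772 to 10850103) stood at 4.12, 4.198 and 2.44 CPM on BW25113 and at 1.58, 0.211 and 0.802 CPM on purE. vet-6 (chromosome I, 13269984 to 13272781) stood at 4.74, 3.60 and 3.39 CPM on BW25113 and at 1.18, 0.0528 and 1.07 CPM on purE. In each of the 3 genes every purE library lay under every BW25113 library, where 6.68% of all genes tested did so, and purE replicate 2 was the lowest. The estimated counts of the 3 genes summed to 331, 229 and 189 reads on BW25113 and to 102, 7 and 48 reads on purE. Their log2 fold changes were -2.45 ± 0.78, -2.02 ± 0.64 and -2.33 ± 0.76 (SE). DESeq2 called all 3 lower, where it called 1.53% of all genes lower, and edgeR called none. As the families were picked on this contrast, nothing is read from these calls. vet-1 varied most on BW25113, where replicate 1 was the highest, and its fold change was -1.78 without that library.

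**Figure D2:**
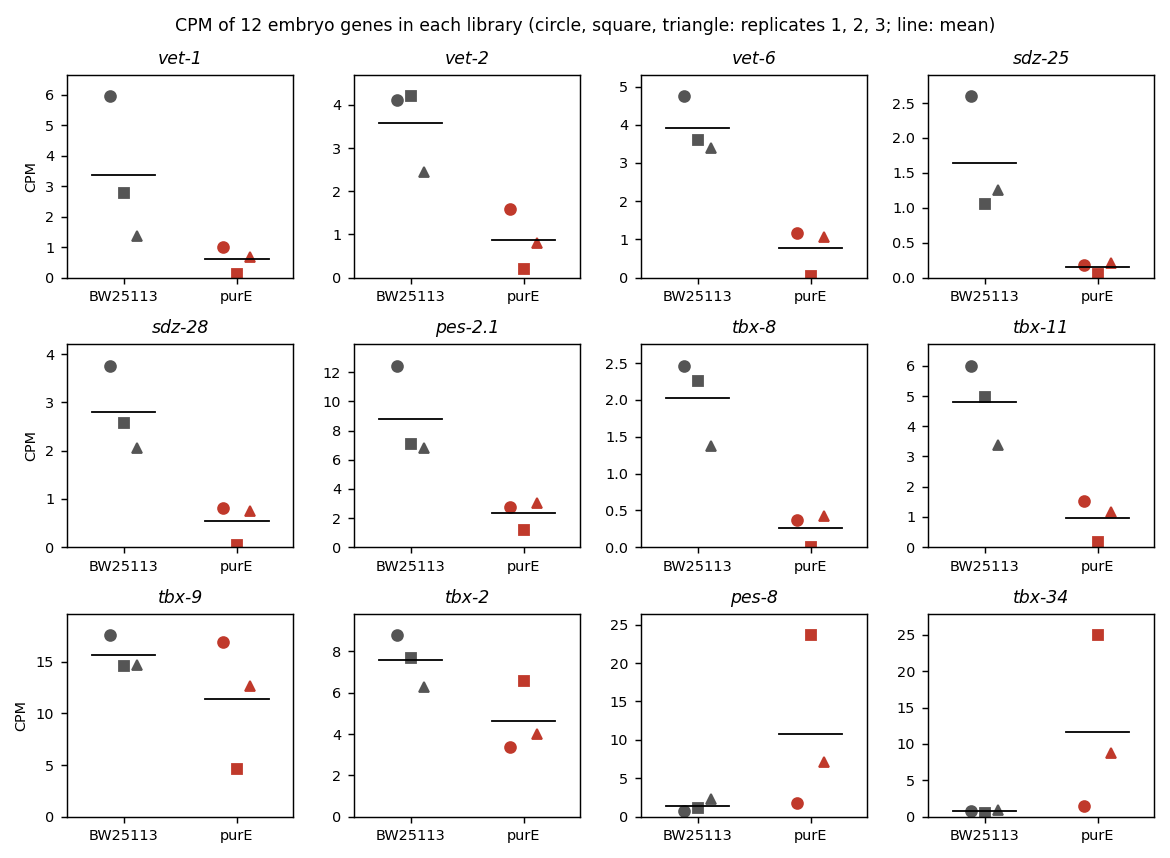
CPM of 12 of these genes in each library, with gray points for BW25113, red points for purE, symbols for the replicates and a line at each group's mean. vet, sdz-25, sdz-28, pes-2.1, tbx-8 and tbx-11 are lower in every purE library, tbx-9 is lowest in purE replicate 2, and pes-8 and tbx-34 are highest there.

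The SKN-1-dependent transcripts made up the largest family, and most were lower on purE. Of the 30 sdz genes, 17 lay lower in all purE libraries, where 6.17% of genes with a read did. None lay higher in all of them, where 12.1% did, and 16 sdz genes had no read in purE replicate 2. Among the 12 filtered sdz genes the most negative fold change was that of sdz-25 (chromosome IV, 8405022 to 8406611), at 2.60, 1.06 and 1.26 CPM on BW25113 and 0.184, 0.0528 and 0.214 CPM on purE, or -3.38 ± 0.63 on the log2 scale. sdz-9 (chromosome II, 2772369 to 2773634) stood at 1.43, 0.784 and 0.763 CPM on BW25113 and 0.147, 0 and 0.160 CPM on purE, a change of -3.16 ± 0.75. Both genes kept at most 16.2% of their BW25113 mean in any purE library. sdz-14 was at 1.48, 1.57 and 0.763 CPM against 0.368, 0 and 0.214 CPM, and sdz-28 at 3.76, 2.58 and 2.06 CPM against 0.809, 0.0528 and 0.749 CPM. Their fold changes were -2.60 ± 0.80 and -2.35 ± 0.73, and neither gene's groups overlapped. sdz-21 was at 1.39, 1.199 and 1.45 CPM on BW25113 and 0.515, 0.158 and 0.909 CPM on purE, again without overlap, at -1.35 ± 0.58.

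The 18 sdz genes under the filter had few reads. Of these 18, 9 lay lower in all purE libraries, where 6.17% of genes with a read did, a share not matched for read depth. Together these 18 held 326 reads over the BW25113 libraries, with at least 86 in each, and 44, 11 and 29 reads on purE. The 9 tbx genes under the filter held 59, 39 and 25 reads against 23, 8 and 8. Of these 9, 2 lay lower in all purE libraries, against the same 6.17%. sdz-1 had 4, 3 and 4 reads on BW25113 and none on purE, which makes it at least 3.39-fold lower against a floor of 3 counts over the purE group. sdz-38 was at 0.492, 0.185 and 0.267 CPM on BW25113 and 0.147, 0.0528 and 0 CPM on purE, where its 3 libraries held 4, 1 and 0 reads. For sdz-23 and sdz-35, with at most 1 read in any library, no fold is given.

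A few sdz genes did not share this pattern. sdz-27, the most abundant of the family, was at 20.0, 13.5 and 11.9 CPM on BW25113 and 15.7, 5.65 and 11.7 CPM on purE, where only replicate 2 lay clearly under the BW25113 range. sdz-24 went the other way, with 12.5, 7.75 and 5.84 CPM on BW25113 and 10.9, 33.997 and 17.5 CPM on purE, and so did sdz-8, with 1.66, 1.52 and 0.763 against 1.54, 4.22 and 2.30 CPM. In both, purE replicates 2 and 3 lay above every BW25113 library and purE replicate 1 lay among them. The fold changes were -0.46 ± 0.41 for sdz-27, 1.26 ± 0.47 for sdz-24 and 1.03 ± 0.52 for sdz-8. Without purE replicate 2 they were -0.14, 0.71 and 0.55. sdz-24 overlaps sri-45 on the opposite strand, and sdz-8 had non-whole estimated counts, so both values may hold reads of other genes.

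**Figure D3:**
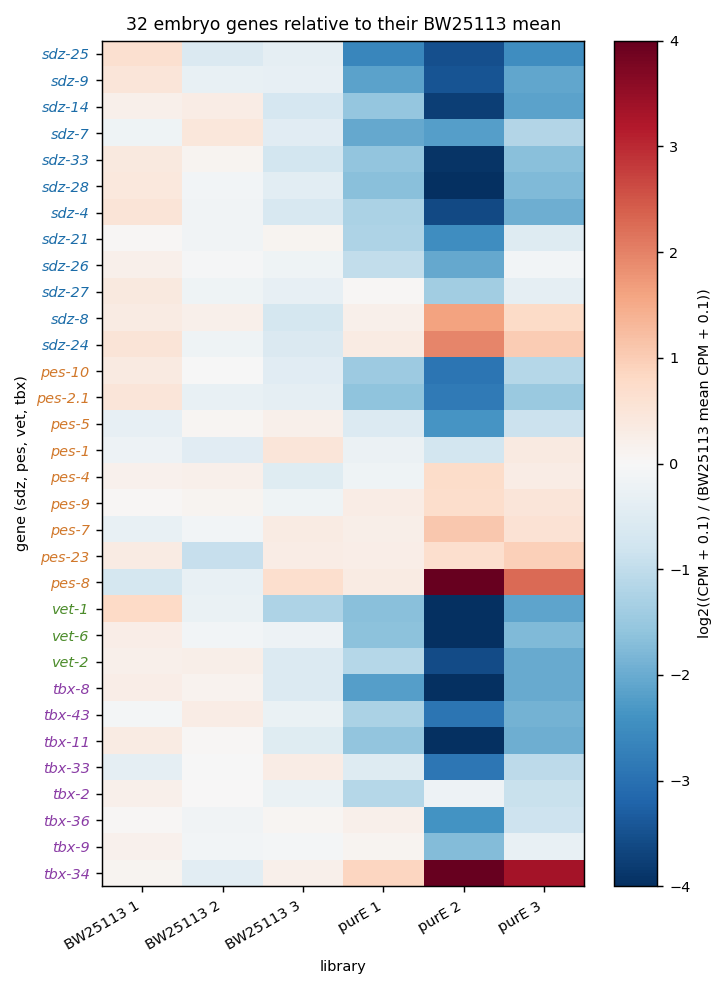
Level of the 32 filtered genes in each library relative to the gene's BW25113 mean, as log2 of CPM + 0.1, with blue for lower and red for higher. The column of purE replicate 2 is the darkest in both directions, and most sdz, vet and tbx rows are blue in all purE columns.

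The pes genes were a mixed group. Of the 9, 3 lay lower in every purE library, where 6.68% of all genes tested did, and 1 lay higher in every one, where 13.1% did. pes-10, an early embryonic transcript whose promoter is widely used as a minimal promoter in worm reporters, was at 1.39, 1.06 and 0.763 CPM on BW25113 and 0.331, 0.0528 and 0.428 CPM on purE. pes-2.1 (chromosome I, 11355236 to 11356370) was at 12.4, 7.10 and 6.79 CPM on BW25113 and 2.79, 1.16 and 3.05 CPM on purE. The groups overlapped in neither gene, and the fold changes were -1.95 ± 0.64 and -1.91 ± 0.47, with pes-2.1 among the genes DESeq2 called. A close relative of pes-2.1, pes-2.2, lies beside it in the annotation. No gene of the deposited tables bears that symbol, and how reads of the pair were assigned is not known. pes-5 was also lower in every purE library, at 6.85, 8.95 and 9.88 CPM against 5.84, 1.58 and 4.65 CPM, with -1.08 ± 0.48, or -0.70 without purE replicate 2 and -1.60 without purE replicate 1. The forkhead factor gene pes-1 was at 0.940, 0.784 and 1.60 CPM on BW25113 and 0.919, 0.633 and 1.44 CPM on purE, so that its groups overlapped. Its fold change was -0.16 ± 0.49, but 0.12 without BW25113 replicate 3 and 0.08 without purE replicate 2.

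The other 5 pes genes were not lower on purE. pes-9, which encodes a relative of cytosolic dipeptidases, was at 135, 142.4 and 116 CPM on BW25113 and 161, 214 and 185 CPM on purE, without overlap, at 0.51 ± 0.23. pes-7, the IQGAP-like scaffold gene of the worm, was at 7.47, 8.63 and 11.7 CPM against 10.8, 19.8 and 13.8 CPM, overlapping in purE replicate 1, at 0.67 ± 0.33, or 0.41 without purE replicate 2. pes-4 and pes-23 had fold changes of 0.35 ± 0.33 and 0.68 ± 0.48 with overlapping groups, and were 0.06 for pes-4 without BW25113 replicate 3 and 0.24 for pes-23 without BW25113 replicate 2. pes-4 ran from 11.1 to 18.1 CPM on BW25113 and from 13.9 to 26.2 CPM on purE, and pes-23 from 0.600 to 1.57 and from 1.51 to 2.46 CPM. pes-8 was the extreme of the family, at 0.806, 1.11 and 2.25 CPM on BW25113 and 1.76, 23.6 and 7.11 CPM on purE. Its fold change was 2.95 ± 0.87, or 1.66 without purE replicate 2, and purE replicate 1 lay inside the BW25113 range.

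Among the T-box genes the pair tbx-8 and tbx-9 was split. The products of these neighbouring genes act redundantly in shaping the epidermis and body wall muscle of the embryo. tbx-8 (chromosome III, 10347349 to 10349740, forward strand) was at 2.46, 2.26 and 1.37 CPM on BW25113 and 0.368, 0 and 0.428 CPM on purE. tbx-9 (chromosome III, 10340006 to 10341858, reverse strand), 5490 bases away, was at 17.5, 14.6 and 14.7 CPM on BW25113 and 16.9, 4.65 and 12.6 CPM on purE. tbx-8 was lower in every purE library, at -2.89 ± 0.80, whereas tbx-9 overlapped in purE replicate 1 and had -0.45 ± 0.44, with -0.07 without purE replicate 2 and -0.99 without purE replicate 1. The difference between the 2 genes was not tested.

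Other T-box genes covered the same range. tbx-11 was at 5.998, 4.98 and 3.39 CPM on BW25113 and 1.54, 0.158 and 1.18 CPM on purE, with -2.30 ± 0.68, and tbx-43 at 0.627, 0.830 and 0.534 against 0.221, 0 and 0.107 CPM, with -2.44 ± 0.75. Neither overlapped between diets. tbx-33 was likewise lower in each purE library, at 4.12, 5.21 and 6.56 CPM against 3.68, 0.633 and 2.51 CPM, but purE replicate 1 was close to the lowest BW25113 value. tbx-36 was at 5.06, 4.38 and 5.15 CPM on BW25113 and 5.59, 0.845 and 2.67 CPM on purE, where replicate 1 was the highest of all libraries. The fold changes of tbx-33 and tbx-36 were -1.21 ± 0.58 and -0.67 ± 0.59. Without purE replicate 2 they were -0.77 and -0.22, and without purE replicate 1 they were -1.89 and -1.60.

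tbx-2, needed for anterior pharyngeal muscle, ordered the purE libraries differently. It was at 8.77, 7.66 and 6.29 CPM on BW25113 and 3.38, 6.55 and 4.01 CPM on purE. Here purE replicate 2 was the highest of its group and reached into the BW25113 range, and replicates 1 and 3 lay under it, at -0.71 ± 0.37. tbx-37 and tbx-38, redundant regulators of mesoderm from the anterior blastomere, were near the floor. tbx-37 was at 0.716, 0.369 and 0.229 CPM on BW25113 and 0.110, 0.106 and 0.160 CPM on purE, and tbx-38 at 0.671, 0.554 and 0.229 against 0.257, 0.0528 and 0 CPM. tbx-38 overlaps srd-74 on the opposite strand. tbx-35, which specifies the mesodermal MS blastomere, had at most 1 read in a library, and tbx-39 and tbx-40, side by side and with non-whole counts, at most 3 after rounding. No fold is given for these 3.

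tbx-34 was the one tbx gene above BW25113 in every purE library. It was at 0.850, 0.554 and 0.915 CPM on BW25113 and 1.47, 24.9 and 8.72 CPM on purE, a log2 fold change of 3.90 ± 0.91 that was 2.70 without purE replicate 2. tbx-37 lies 6557 bases from it on the same strand and stood lower in every purE library. In tbx-34 as in pes-8, purE replicate 2 was the highest library and purE replicate 3 the next.

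Other genes of embryonic development were counted from lists chosen for their textbook roles. Of 24 tested transcription factors of embryonic lineages and tissues, 20 were negative, with a median log2 fold change of -0.74. All purE libraries lay lower for 13 of the 24, where 6.68% of all genes tested did. DESeq2 called 5 lower and none higher, where it called 1.53% and 6.26% of all genes, while edgeR called none. At an unadjusted edgeR p under 0.05, 12 were lower, where 3.81% of all genes were. The neuronal factor gene cnd-1 had the smallest edgeR p, at 2.28, 1.29 and 0.915 CPM on BW25113 and 0.294, 0.158 and 0.0535 CPM on purE, or -3.04 ± 0.65 (edgeR adjusted p of 0.129, DESeq2 0.00352). The other 4 that DESeq2 called, named after their values were seen, were ngn-1, ceh-36, ceh-27 and nhr-25, with -2.64, -2.67, -1.99 and -1.52. In this list purE replicate 2 was the lowest library, alone or tied, for 7 genes of 25, while it was so for 23 of the 32 filtered sdz, pes, vet and tbx genes and for 31.9% of all genes tested.

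Genes at the top of endoderm specification were mostly too scarce to follow. end-1 was at 0.582, 0.369 and 0.420 CPM on BW25113 and 0.110, 0.158 and 0.214 CPM on purE, lower in each purE library. Its partner end-3 was at 0.0448, 0.0461 and 0.0381 CPM on BW25113 and 0.0735, 0.0528 and 0.107 CPM on purE, higher in each, with all values under the floor of a single library. med-1 had a single read in all libraries. The intestinal GATA factor gene elt-2, which adult intestine also expresses, had 0.39 ± 0.32 (edgeR adjusted p of 0.543). Of the Notch-responsive genes, 3 of 8 were tested, all negative with a median of -0.70 and none called by either tool, and ref-1 had -1.03 ± 0.46. T-box genes named otherwise were mab-9 and mls-1, both under the filter, and sea-1, with -0.69 ± 0.55, or -0.25 without purE replicate 2 and -1.09 without purE replicate 1. mls-1 was at 0.134, 0.138 and 0.153 CPM on BW25113 and 0.221, 0.317 and 0.214 CPM on purE, higher in each purE library.

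RNA that the mother supplies also had lower means on purE. All 24 maternal regulators were negative, with a median of -0.52, and so were all 14 genes of oocyte, eggshell and yolk uptake, with a median of -0.48. Without purE replicate 2 the medians were -0.32 and -0.25. All purE libraries lay lower for 7 of the 24 and for 2 of the 14, where 6.68% of all genes tested did. edgeR called none of either list, and DESeq2 called none and 1 lower, where it called 1.53% of all genes lower. An unadjusted edgeR p under 0.05 was found for 2 lower genes in each list, where 3.81% of all genes were so. pop-1, the TCF factor of the Wnt pathway, had -0.81 ± 0.26, and the caveolin gene cav-1 had -2.51 ± 0.59 (edgeR adjusted p of 0.129, DESeq2 0.000623). The summed level of the maternal list was 4023, 5774 and 5952 CPM on BW25113 and 4127, 2876 and 4661 CPM on purE, and that of the oocyte list 12671, 15196 and 11171 CPM on BW25113 and 9809, 6403 and 10674 CPM on purE. That of the 3 vet genes was 14.8, 10.6 and 7.21 CPM and 3.75, 0.370 and 2.57 CPM. purE replicate 2 was the lowest for all 3 sums. The groups overlapped for the maternal list and not for the other 2. Much of the oocyte sum came from perm-2 and perm-4, named after their values were seen, and each overlapped between diets. In BW25113 replicate 3 they were at 3541 and 2203 CPM, and in purE replicate 3 at 4424 and 2275 CPM.

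**Figure D4:**
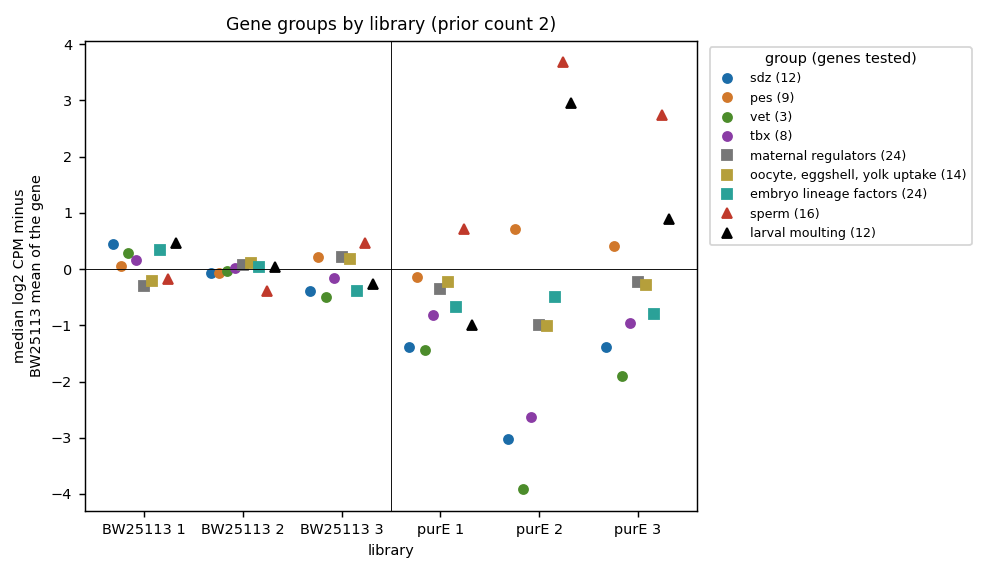
Median over the tested genes of each group of log2 CPM minus the gene's BW25113 mean, by library, with circles for the sdz, pes, vet and tbx families, squares for other reproductive and embryonic lists and triangles for sperm and moulting. In purE replicate 2 the vet, sdz and tbx medians are -3.92, -3.02 and -2.64, and those of sperm and moulting 3.68 and 2.95.

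Markers of other cells and stages also differed between libraries, and most in purE replicate 2. The sperm list held 20 deposited genes, 16 of them tested and 15 positive, with a median log2 fold change of 2.79. DESeq2 called 12 of the list higher, where it called 6.26% of all genes higher. The sperm gene of smallest edgeR p, msp-3, which encodes a major sperm protein, had 3.06 ± 0.67. The summed level of the list was 410 to 704 CPM on BW25113 and 868, 6824 and 3502 CPM on purE replicates 1 to 3. Reads of near-identical msp copies may have been divided between them. The larval moulting list, with 10 of 12 tested genes positive and bli-2 at 5.68 ± 1.43, had a median of 1.39, or 0.28 without purE replicate 2, and summed to 98.8 to 138 CPM on BW25113 and to 50.3, 946 and 215 CPM on purE. purE replicate 1 had the lowest sum and was the lowest library for 6 of the 13 moulting genes. Genes of hatching, elongation and cuticle secretion, active late in embryos and again in larvae, were divided, with 7 of 16 negative. DESeq2 called 2 of them lower and 3 higher, where it called 1.53% and 6.26% of all genes. In this list the cuticle collagen gene dpy-17 had -4.37 ± 0.84. The list summed to 295 to 1818 CPM on BW25113 and to 125, 3382 and 764 CPM on purE. The part of sperm, moulting stage or maternal RNA in the levels of the zygotic genes was not tested.

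Position and structure were not used to choose the genes. Chromosome II held 14 of the 30 sdz genes, against 17.4% of all annotated genes, chromosome III held 10 of the 17 tbx genes, against 13.5%, and chromosome I all 3 vet genes. sdz-9 and sdz-10 lie 102 bases apart on one strand, and both were lower in all purE libraries, with sdz-10 at 4, 4 and 4 reads against 1, 0 and 1. The sdz genes were short, with a median span of 1212 bases against 2124 for all annotated genes, and 40% of them had at most 2 exons, against 10.7% of all genes.

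Exon number went with the fold change among the 32 filtered genes, which is given as a description only. The families were picked on this contrast, and a gene can pass the filter through BW25113 alone. The 13 filtered genes with at most 3 exons had a median log2 fold change of -2.30, with 12 negative, and the 19 with 4 or more had -0.71, with 12 negative. Over all genes tested the medians were 0.25 and -0.02 for the same classes. Across the 32 genes, which share libraries and are not independent replicates, Spearman's rho between exon number and fold change was 0.51, as against -0.14 across 12056 genes. Within families it was 0.66 for 12 sdz genes, 0.66 for 9 pes genes and -0.42 for 8 tbx genes, so the tbx genes did not share it.

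**Figure D5:**
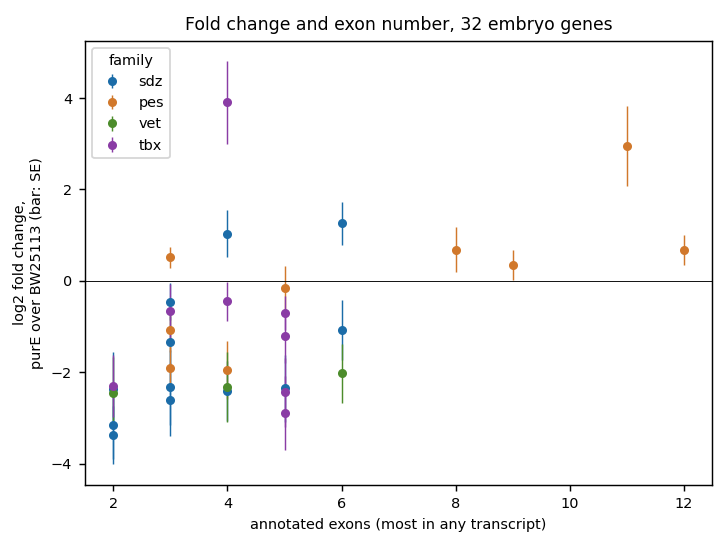
Log2 fold change, purE over BW25113, with its standard error, against the largest number of exons in any annotated transcript, for the 32 filtered genes colored by family. Genes with 2 exons lie at or under -2, and the 4 pes genes with 8 to 12 exons lie above 0.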

How the data were processed

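RNA of whole adult worms was sequenced in 6 libraries, 3 per diet, assigned by their labels. The authors deposited estimated counts per gene and FPKM values, per the file headers, with one column per replicate. Per the submitters' processing notes the reference was WBcel235. Which aligner, counter and strandedness were used is not given in the sources used here. Overlapping or near-identical genes cannot be separated. Of the 59 genes, 5 had non-whole counts and 5 overlapped another protein-coding gene. Positions and exons were read from a WBcel235 annotation, which held 18692 of 18811 genes and all 59.

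Counts were rounded, filtered with the default of edgeR 4.0.16 (R 4.3.3), which left 12144 genes, and scaled with TMM (factors 0.844 to 1.20). purE was compared with BW25113 by edgeR's quasi-likelihood test on the whole table, two-sided, with Benjamini-Hochberg adjustment and a threshold of 0.05; procedures were checked on simulated data. The standard error is the fold change divided by the square root of F. Alternatives were other scalings and filters, DESeq2 1.42.0, limma-voom (limma 3.58.1), limma on log2(FPKM + 1), the replicate number as a block, a fit without the 100 most abundant genes, and fits without each single library. Log2 CPM used a prior count of 2.

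The genes and lists were chosen with earlier results of these data known. Named with values were, per family, the 5 most abundant genes, the 3 lowest and 3 highest fold changes and genes of known role. From each list the gene of smallest edgeR p was named. Added after their values were seen were sdz-1, sdz-10, sdz-15, sdz-23, sdz-35, tbx-32, tbx-41, end-1, end-3, med-1, mab-9 and mls-1. Promoter and protein sequences were not used here.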

Additional observations from a re-analysis of the deposited data

How the results depend on the processing

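Of the 32 filtered genes 24 stayed negative under every scaling, DESeq2, limma-voom and the replicate block. Without a filter 50 of 59 were negative and 30 lay lower in all purE libraries, and with at least 1 CPM in 3 libraries 11 of 24 lay lower, as fewer genes were tested. DESeq2 called 10 of the genes lower and 2 higher, and 5 of the embryonic lineage list and 1 of the oocyte list lower. It called 12 of the sperm list higher, 2 lower and 3 higher of the hatching and cuticle list, and 2 of the moulting list higher. Over all genes tested it called 1.53% lower and 6.26% higher. In edgeR, leaving out each library gave 0 to 17 called genes of the families and a median from -2.19 to -1.06. For the lineage, oocyte, sperm, hatching and moulting lists it gave 0 to 9, 0 to 2, 0 to 15, 0 to 5 and 0 to 5 called genes. All nonzero edgeR counts came without purE replicate 1, and the cause was not tested. DESeq2 called genes of the families without any one of the libraries, as given above. Medians ran from -0.71 to -0.32 for maternal genes, -0.77 to -0.25 for oocyte genes, -0.92 to -0.64 for lineage genes, 2.03 to 3.09 for sperm genes, 0.28 to 2.28 for moulting genes, -0.19 to 0.27 for endomesoderm genes, -0.98 to -0.62 for Notch-responsive genes and -1.42 to 0.61 for hatching and cuticle genes, whose median was 0.14 with all libraries. pes-1 ran from -0.51 to 0.12, changing sign to 0.12 without BW25113 replicate 3 and 0.08 without purE replicate 2.

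With the replicate number as a block, 0 of the genes were called and the median was -1.49. Deviations of same-numbered libraries correlated at -0.137, -0.170 and 0.136. With 3 libraries per diet this cannot decide whether the numbers pair the samples, and the labels state no pairing. Depth limits the 27 genes under the filter, where a library held at most 26 reads of a gene.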
